A study of Drosophila melanogaster with 15 samples.

Results

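Long introns were followed through the reads that cross their splice junctions in RNA from fly heads. A junction was taken as long when its start and end lay 1000 bp or more apart, when it had at least 150 reads over the 15 libraries together, and when the table named a single gene for it. These conditions took 4024 junctions in 1909 genes, of 23268 junctions of any length that passed the same conditions on reads and gene, and of 1105894 junctions listed in all. Of the long junctions, 3414 spanned 1 to 10 kb and 610 spanned more than 10 kb. The junctions were thus chosen by their measured read total, gene name and length, which are given as descriptions only. Because a junction's reads follow the reads of its gene, each junction was measured as junction reads per read of its own gene, given below per 1000 gene reads. This could be done for 4021 of the junctions, since 3 named a gene that the gene table did not list.

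The libraries are 5 of the *GMR/+* control (replicates 1 to 5), 5 of *GMR* > *prp4* RNAi (6 to 10) and 5 of *GMR* > *prp8* RNAi (11 to 15). All flies carried the *GMR* driver, which acts in the eye, and only the knockdowns carried an RNAi transgene of the GD collection. Loss of the target and other effects of the transgene or its strain background therefore cannot be told apart in comparisons with *GMR/+*. Flies were 3 to 5 days old, had spent at least 3 cycles in 12 h of light and 12 h of dark, and were frozen at ZT12 according to the labels, while the study's text also gives another time. Since RNA came from whole heads, fewer cells of a type and less RNA per cell cannot be told apart. The study calls its replicates independent, while the labels do not say how flies were pooled, so p-values measure the spread between these libraries.

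Introns are removed by the spliceosome, in which the U4/U6 and U5 small nuclear ribonucleoproteins enter together as the tri-snRNP. Prp4 is a kinase that acts on tri-snRNP proteins, and Prp8 is the large U5 protein at the catalytic centre. Most fly introns are short and are recognised across the intron itself, whereas long introns are often first introns and can hold regulatory sequence or alternative first exons.

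A library held 11753627 to 11979892 gene reads and 3129163 to 3244363 junction reads. The *prp4* gene, listed as CG7028, had 142, 165, 153, 160 and 141 reads in *GMR/+*, against 149, 129, 126, 129 and 111 in *GMR* > *prp4* RNAi, where replicate 6 lay within the control range. Without replicate 6, 22 long junctions changed in the test of *prp4* given below, against 23 with it. *Prp8* had 1339, 1444, 1488, 1437 and 1545 reads in *GMR/+* and 1305, 1311, 1264, 1572 and 1304 in *GMR* > *prp8* RNAi. The library labelled *GMR* > *prp8* RNAi replicate 14 was the one with 1572, above every control. Some results that rest on it are also given without it. The summed class values and the total of long junctions changed in *GMR* > *prp8* RNAi are given with it. Of the cell type markers, 14 photoreceptor genes took 13.2 to 13.9% of gene reads in *GMR/+*, 12.5 to 13.8% in *GMR* > *prp4* RNAi and 12.1 to 13.6% in *GMR* > *prp8* RNAi. The 10 glial genes that were listed took 0.488 to 0.539%, 0.442 to 0.478% and 0.447 to 0.503%, and the 7 neuronal genes 0.195 to 0.263%, 0.221 to 0.252% and 0.219 to 0.250%. Muscle genes took 0.674 to 0.712%, 0.683 to 0.718% and 0.710 to 0.835%, with 1 of the 20, *TpnC4*, at 0 in both knockdowns, and fat body genes 0.300 to 0.665%, 0.242 to 1.74% and 0.152 to 0.814%. The glial share was lower in all *GMR* > *prp4* RNAi libraries than in any control, and its part in the results on *prp4* was not tested.

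**Figure D1:**
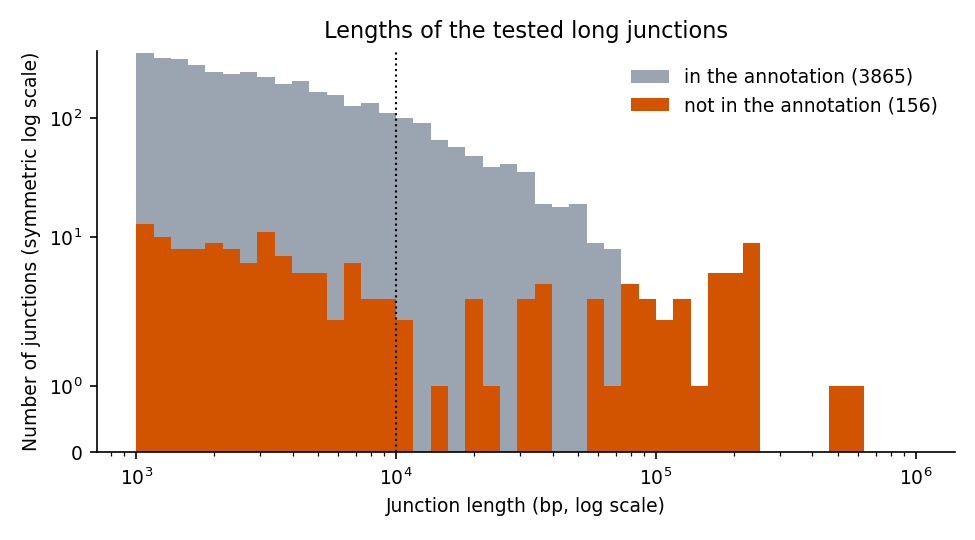
Number of long junctions by length in bp, on log axes, with the 3865 tested junctions found in the gene annotation in grey and the 156 not found there in orange. The dotted line marks 10 kb, and beyond 116882 bp, the longest annotated member, only junctions outside the annotation remain.

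Long junctions held 8.68% of all junction reads, with 7.68% on those of 1 to 10 kb and 1.0% on those over 10 kb, while junctions under 1 kb held 83.7%. Of the annotated introns, 33.8% of those over 10 kb were the first intron of a transcript, as were 26.9% of those of 1 to 10 kb and 13.0% of those under 1 kb. Introns of the 5′ UTR made up 23.9%, 12.7% and 1.82% of the same classes, and introns between coding exons 75.2%, 86.5% and 97.2%. Chromosome 3R held 32.3% of all junctions over 10 kb, annotated or not, and 25.3% of those of 1 to 10 kb. The 197 over 10 kb included 24 unannotated junctions of *ninaE*. On the small chromosome 4 lay 0.328% and 2.34% of the same classes. A single long junction was found in 1040 genes, and 261 genes had 4 or more. The rhodopsin gene *ninaE* had the most, 38. It was followed by *sif*, a Rac exchange factor, with 21, the calcium-activated potassium channel gene *slo* with 17, the T-type calcium channel gene *Ca-alpha1T* with 16, and the polarity kinase gene *par-1* with 15.

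The most read junctions of 1 to 10 kb lay in the ribosomal protein genes *RpS7* with 96729 reads, *RpS5a* with 81157 and *RpL22* with 55818. Over 10 kb, 2 introns of *Ggamma30A*, the gamma subunit of the G protein of photoreceptors, had the most reads. Its 18448 bp intron had 129666 reads and its 15259 bp intron 15211. The 44722 bp intron of *Rbp6*, an RNA-binding protein, had 9131, and introns of CG31221 and CG17841 had 9093 and 6789. None of these 8 passed the test in any comparison. At the limits of the choice, *Stim*, *Hil* and *mim* each had 1 junction of exactly 150 reads, and junctions of exactly 1000 bp lay in CG31999, *AnxB11* and CG3829. Just outside stood junctions of 998 bp in *drongo* and CG1746 and of 999 bp in *zfh2*.

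Of the long junctions, 3867 (96.1%) were introns of the annotation, against 98.6% of those under 1 kb. The share was 97.0% for 1 to 10 kb and 91.3% for over 10 kb. The 156 tested junctions outside the annotation lay in 102 genes that were read more. Their genes had a median of 4810 gene reads per library, against 1352 for annotated introns, and 65 of the 156 (41.7%) lay in the 100 most read genes, against 86 of 3865 (2.23%). They were used little, with a median of 0.338% junction reads per gene read, against 2.53%. At such low use the minimum number of reads could be met only in genes with many reads. The higher gene reads therefore follow at least in part from the choice of junctions, and how far they do was not tested. The 5 longest long junctions were all outside the annotation, and none passed the test. They were listed with CG8343 (239291 bp), *ninaE* (249368 bp), *subdued* (250127 bp), *Hsp70Ba* (511268 bp) and the methionine sulfoxide reductase gene *SelR* (627797 bp). The *Hsp70Ba* junction joins *Hsp70Aa* to *Hsp70Ba*, near-identical copies of a heat shock gene, so reads could have been placed in either. It had 2, 4, 2, 2 and 7 reads in *GMR/+*, against 78, 21, 50, 5 and 3 in *GMR* > *prp4* RNAi and 37, 39, 44, 15 and 2 in *GMR* > *prp8* RNAi. The groups overlapped in both knockdowns. The *SelR* junction spans 81 whole genes and joins *SelR* to CG42795 on the opposite strand.

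*ninaE* encodes rhodopsin 1, the visual pigment of the outer photoreceptors, and was the most read gene. None of its 38 long junctions was annotated. They had 48894 reads in all, and 24 of them spanned more than 10 kb, with 14 of the 24 sharing a single end. Per 1000 *ninaE* reads they had 3.92 ± 0.59 reads (SD, n = 5) in *GMR/+*, with a range of 3.15 to 4.52. The means were 3.37 ± 0.88 in *GMR* > *prp4* RNAi (range 2.72 to 4.53) and 3.18 ± 0.31 in *GMR* > *prp8* RNAi (range 2.75 to 3.55), and all groups overlapped. *ninaE* supplied 40.4% of the gene reads of the class over 10 kb and 1.21% of its junction reads, so that the class values below are given for annotated introns.

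When all annotated long introns of a class were summed, none of the groups stood apart. In introns of 1 to 10 kb, *GMR/+* had 61.0 ± 1.99 junction reads per 1000 gene reads (SD, n = 5, range 58.1 to 63.1). *GMR* > *prp4* RNAi had 59.4 ± 1.89 (57.6 to 62.5) and *GMR* > *prp8* RNAi 60.7 ± 1.34 (59.4 to 62.8). In introns over 10 kb the values were 39.8 ± 1.83 (37.0 to 41.8), 37.98 ± 1.87 (36.4 to 41.2) and 39.4 ± 1.01 (38.2 to 40.9). The ratio of the classes, over 10 kb to 1 to 10 kb, was 0.652 ± 0.0093 in *GMR/+*, 0.640 ± 0.0131 in *GMR* > *prp4* RNAi and 0.649 ± 0.0038 in *GMR* > *prp8* RNAi. All of these ranges overlapped. Introns under 1 kb had 264 ± 1.80, 263 ± 1.90 and 263 ± 1.85. With junctions outside the annotation included, the class of 1 to 10 kb had 45.3 ± 1.70, 44.3 ± 1.60 and 45.6 ± 1.36, and the class over 10 kb 14.01 ± 1.13, 13.4 ± 0.918 and 14.2 ± 0.517, again with overlapping ranges. When only the *ninaE* junctions were left out, a choice made after seeing the data, the class over 10 kb had 23.7 ± 1.62, 22.4 ± 1.07 and 22.7 ± 0.551. The means of *GMR* > *prp8* RNAi and *GMR/+* then stood in the opposite order. The ratio of the classes was then 0.411 to 0.452 in *GMR/+*, 0.409 to 0.435 in *GMR* > *prp4* RNAi and 0.414 to 0.430 in *GMR* > *prp8* RNAi, where 4 of 5 controls were above every *prp8* library and the other was below them all. These sums are scores over chosen introns and were not tested.

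**Figure D2:**
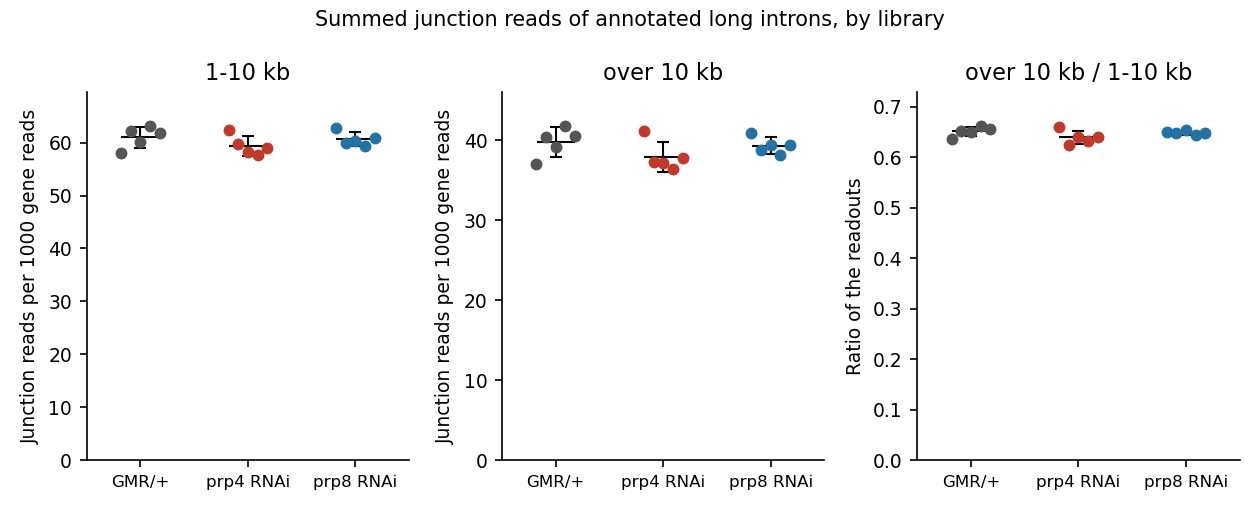
Summed junction reads per 1000 gene reads in annotated introns of 1 to 10 kb (left) and over 10 kb (middle), and the ratio of the classes (right), with 1 point per library and the mean ± SD of 5 libraries in black. The means for over 10 kb are 39.8, 37.98 and 39.4, and the points of all groups overlap in each panel.

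In most genes, long introns were crossed by fewer reads than short introns of the same gene. In 1570 genes with annotated introns of both kinds, the mean reads of an intron of 1 to 10 kb were 0.717 of those of an intron under 1 kb in *GMR/+* (median over genes), and 67.8% of the genes were below 1. In the 357 genes with an intron over 10 kb the ratio was 0.574, with 74.8% below 1. The medians were 0.715 and 0.721 in *GMR* > *prp4* RNAi and *GMR* > *prp8* RNAi for 1 to 10 kb, and 0.582 and 0.590 for over 10 kb. Median ratios of single libraries overlapped between the groups.

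Each junction was then tested for a change in reads per gene read with the quasi-likelihood test of edgeR, over all 23237 junctions of any length, with a Benjamini-Hochberg adjusted p of 0.05 as threshold. Both knockdowns were set against the same 5 control libraries, so the comparisons are not independent and their values are given side by side. In *GMR* > *prp4* RNAi, 23 of 4021 long junctions changed (0.572%), where 0.34% of all junctions tested did. Of these, 11 were higher and 12 lower, where 0.168% and 0.172% of all junctions were. With at least 300 reads required, 14 of 2549 long junctions changed (0.549%), 3 higher and 11 lower. Of all junctions 0.376% then did, 0.154% higher and 0.222% lower. Since the minimum of 150 reads counts the knockdown libraries, 5 of the 11 that were higher (in CG42492, *Ggamma30A*, *Pka-R1*, *rgr* and *trol*) would not have passed it with all libraries at the control level. The changed junctions numbered 17 of 3412 for 1 to 10 kb (0.498%) and 6 of 609 for over 10 kb (0.985%). An unadjusted p under 0.05 was found for 294 long junctions, where 6.52% of all junctions had one. The median log2 change was -0.02 over all long junctions and -0.01 over all junctions tested. In *GMR* > *prp8* RNAi, 22 long junctions changed (0.547%), 15 higher and 7 lower, where 0.293% of all junctions changed, 0.168% higher and 0.125% lower. Of the 15, 3 (in *Ggamma30A*, *Rtnl1* and *rgr*) passed the minimum only through the knockdown libraries in the same sense. They comprised 17 of 1 to 10 kb (0.498%) and 5 over 10 kb (0.821%). An unadjusted p under 0.05 was found for 335, where 6.93% of all junctions had one. The groups did not overlap in 72 long junctions (1.79%) in *GMR* > *prp4* RNAi and 62 (1.54%) in *GMR* > *prp8* RNAi, where 1.47% and 1.36% of all junctions did not. With reads of junctions that share an end as the denominator, 9 and 8 long junctions changed (0.246% and 0.218%), where 0.0916% of all junctions did in each knockdown. Without any gene denominator 73 and 44 did (1.82% and 1.09%), where 2.01% and 1.14% of all junctions did, so that the share of long junctions was then below that of all. The *prp8* count of 22 was 14 without replicate 12 and 12 without replicate 13, and its count of 5 over 10 kb was 3 without replicate 13 or 14.

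**Figure D3:**
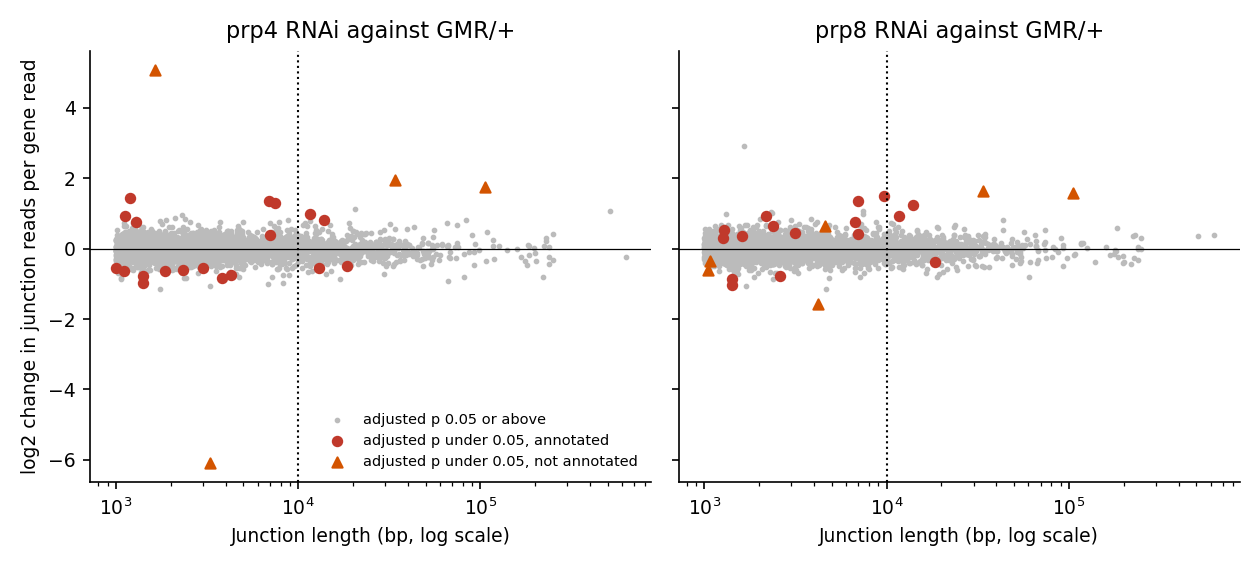
Fitted log2 change in junction reads per gene read of the 4021 long junctions against junction length (log axis), for *GMR* > *prp4* RNAi (left) and *GMR* > *prp8* RNAi (right) against *GMR/+*. Red circles are annotated and orange triangles unannotated junctions that passed the test, 23 on the left and 22 on the right, and the dotted line marks 10 kb.

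The largest change over 10 kb was in a photoreceptor gene. In *Ggamma30A* (FBgn0267252) an unannotated junction of 33849 bp at chr2L:9257207-9291055 (BDGP6) had 8, 8, 3, 8 and 9 reads in *GMR/+*, against 31, 23, 33, 22 and 22 in *GMR* > *prp4* RNAi and 22, 24, 26, 19 and 20 in *GMR* > *prp8* RNAi. Every knockdown library was above every control. The log2 change was 1.96 ± 0.25 (SE) in *GMR* > *prp4* RNAi and 1.64 ± 0.26 in *GMR* > *prp8* RNAi (edgeR adjusted p = 4.1e-05 and 0.00023). The junction runs from the start of the 15259 bp intron to the end of the 18448 bp intron, and passes over the annotated exon of 142 bp at chr2L:9272466-9272607. It made up 0.691 ± 0.234% of its sum with the 15259 bp intron in *GMR/+*, 2.62 ± 0.392% in *GMR* > *prp4* RNAi and 2.10 ± 0.20% in *GMR* > *prp8* RNAi. The 15259 bp intron itself had 920 to 1147 reads in *GMR/+*, 891 to 1033 in *GMR* > *prp4* RNAi and 928 to 1099 in *GMR* > *prp8* RNAi, and the groups overlapped. Both *Ggamma30A* calls held in every other setting that covered the junction. The settings with a higher minimum of reads and with annotated introns only did not cover it. It had 278 reads in all, 36 of them in *GMR/+*, and passed the minimum number of reads only through the knockdown libraries. It could thus enter the test only with such a rise.

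*Ace* encodes acetylcholinesterase, which breaks down the transmitter acetylcholine. The first intron of its 5′ UTR (FBgn0000024), 11648 bp at chr3R:13246655-13258302, had 30, 33, 27, 26 and 39 reads in *GMR/+*, against 72, 55, 73, 59 and 48 in *GMR* > *prp4* RNAi and 60, 60, 61, 53 and 47 in *GMR* > *prp8* RNAi. The knockdowns did not overlap with the controls. Per 1000 *Ace* reads the controls had 9.80 to 13.7, *GMR* > *prp4* RNAi 20.96 to 27.7 and *GMR* > *prp8* RNAi 20.1 to 25.5, with log2 changes of 0.995 ± 0.145 and 0.94 ± 0.148 (SE, edgeR adjusted p = 0.00033 and 0.00023). The gene reads of *Ace* did not pass the test, with log2 changes of 0.00 and -0.09 (edgeR adjusted p = 0.99 and 0.38).

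*Pde1c* encodes a calcium-dependent phosphodiesterase of cyclic nucleotides. Its intron of 13875 bp at chr2L:11818850-11832724 (FBgn0264815) had 17, 28, 48, 29 and 28 reads in *GMR/+*, against 60, 79, 56, 41 and 58 in *GMR* > *prp4* RNAi and 99, 108, 106, 60 and 106 in *GMR* > *prp8* RNAi. Control replicate 3, the highest control, was above *GMR* > *prp4* RNAi replicate 9, and per gene read every *GMR* > *prp8* RNAi library was above every control. *Pde1c* had a log2 change of 0.80 ± 0.179 in *GMR* > *prp4* RNAi and 1.23 ± 0.162 in *GMR* > *prp8* RNAi (SE, edgeR adjusted p = 0.036 and 1e-05). The *prp4* call was lost when any one of replicates 1, 2, 4, 5, 7, 8 and 10 was left out, with an adjusted p of up to 0.191. *Pde1c* gene reads were themselves higher in *GMR* > *prp8* RNAi, by 0.43 on the log2 scale (edgeR adjusted p = 0.006).

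Of the long junctions over 10 kb that fell, *Doa* encodes a kinase that phosphorylates SR splicing factors. Its 18469 bp intron at chr3R:28901023-28919491 (FBgn0265998) had 174, 194, 196, 209 and 211 reads in *GMR/+*, against 156, 124, 153, 147 and 124 in *GMR* > *prp4* RNAi and 162, 155, 141, 155 and 154 in *GMR* > *prp8* RNAi. Every knockdown library was below every control. For *Doa* the log2 change was -0.49 ± 0.087 and -0.38 ± 0.082 (SE, edgeR adjusted p = 0.004 and 0.024), and the *prp8* call was lost without any one of replicates 3, 4, 5, 12, 13, 14 and 15, with an adjusted p of up to 0.105. An unannotated junction of 19202 bp starts at the same place. The annotated intron made up 89.4 ± 1.26% of the sum of both in *GMR/+*, 79.7 ± 2.36% in *GMR* > *prp4* RNAi and 81.3 ± 1.97% in *GMR* > *prp8* RNAi.

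The first intron of *futsch*, which encodes a microtubule-associated protein of neurons, spans 12990 bp at chrX:1414686-1427675. It had 69, 102, 84, 103 and 126 reads in *GMR/+*, against 73, 66, 58, 69 and 62 in *GMR* > *prp4* RNAi and 85, 81, 84, 106 and 76 in *GMR* > *prp8* RNAi. Per 1000 gene reads *GMR* > *prp4* RNAi lay at 4.66 to 6.33, below the 6.66 to 9.21 of the controls, with a log2 change of -0.55 ± 0.122 (SE, edgeR adjusted p = 0.031). The call was lost without any one of replicates 2, 4, 5, 7, 8 and 10, with an adjusted p of up to 0.151, and the log2 value in *GMR* > *prp8* RNAi was -0.10 (edgeR adjusted p = 0.94).

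A junction of 105336 bp listed with the dopamine receptor gene *Dop1R1* also passed, at chr3R:14070358-14175693. It runs from *foxo* to *Dop1R1*, which lie on opposite strands with 22 genes between them. Its reads were 9, 15, 3, 17 and 15 in *GMR/+*, against 21, 12, 6, 14 and 14 in *GMR* > *prp4* RNAi and 10, 6, 12, 21 and 8 in *GMR* > *prp8* RNAi, and the groups overlapped in reads. Per 1000 gene reads they did not, with 0.690 to 4.23 in the controls, 4.41 to 14.05 in *GMR* > *prp4* RNAi and 4.99 to 15.9 in *GMR* > *prp8* RNAi. The log2 change was 1.75 ± 0.328 and 1.58 ± 0.339 (SE, edgeR adjusted p = 0.007 and 0.019). The *Dop1R1* gene reads fell from 4170 ± 189 (SD, n = 5) to 1389 ± 92.2 and 1328 ± 85.2, log2 changes of -1.57 and -1.66 (edgeR adjusted p = 2.1e-10 and 5.1e-10). Neither junction call held without the gene denominator, where the *prp8* value was -0.0505, and the *prp8* call was lost without replicate 13 or 14, with an adjusted p of up to 0.222.

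**Figure D4:**
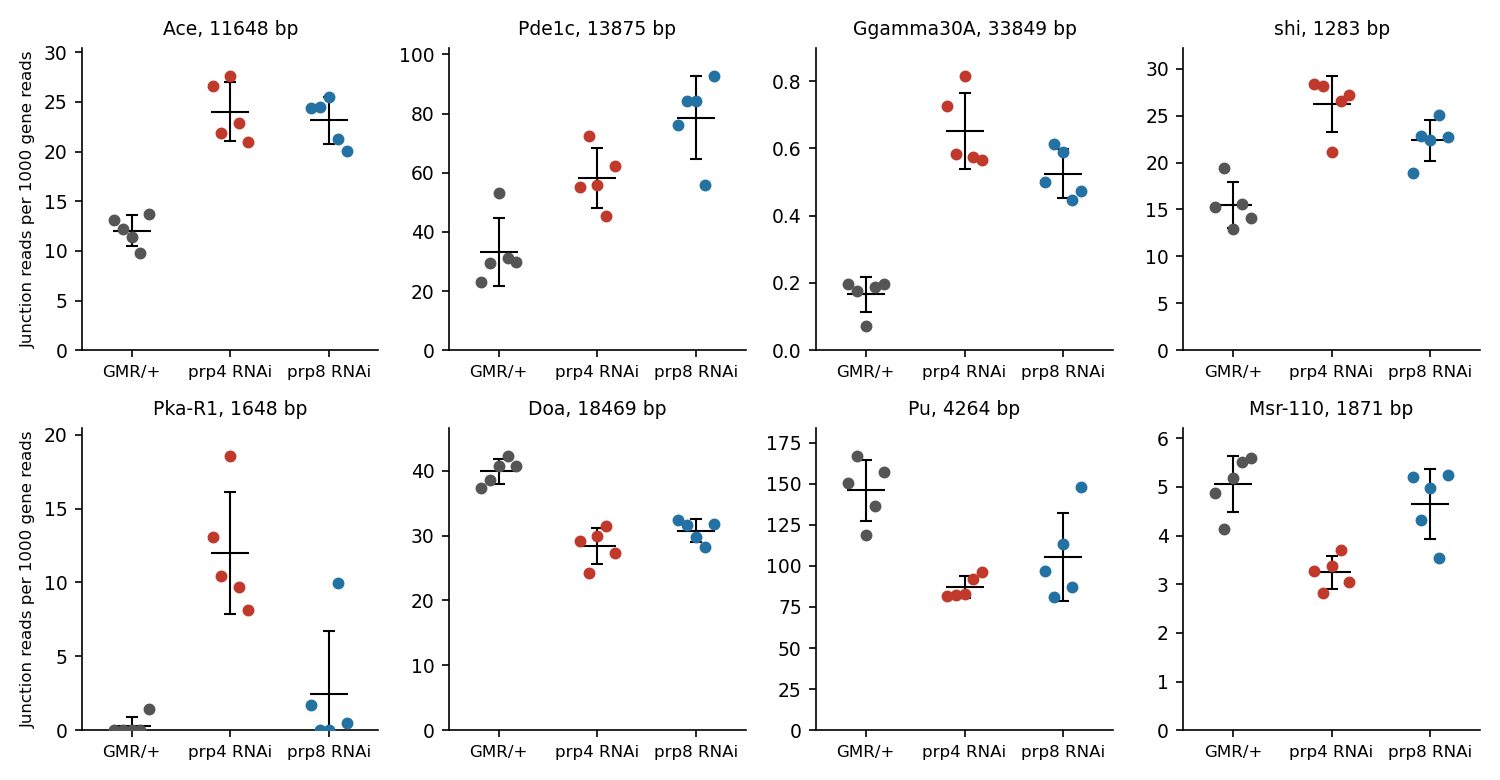
Junction reads per 1000 gene reads of 8 long junctions, with 1 point per library and the mean ± SD of 5 libraries in black. *Ace*, with a mean of 12.0 in *GMR/+* and 23.2 in *GMR* > *prp8* RNAi, and *Ggamma30A* stand above the controls in both, *Doa* below in both, and the *Pka-R1* point at 9.95 in *GMR* > *prp8* RNAi is replicate 14.

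Among introns of 1 to 10 kb, 2 annotated junctions of CG43897 (FBgn0264489) fell in both knockdowns. They start at the same base, chr3L:9830786-9832198 (1413 bp) and chr3L:9830786-9832195 (1410 bp). The 1413 bp junction had 199, 281, 224, 281 and 254 reads in *GMR/+*, against 158, 108, 119, 79 and 116 in *GMR* > *prp4* RNAi and 160, 125, 140, 123 and 155 in *GMR* > *prp8* RNAi. Every knockdown library was below every control, with log2 changes of -0.97 ± 0.106 and -0.86 ± 0.091 (SE, edgeR adjusted p = 2.9e-06 and 9.2e-08). The 1410 bp junction had 60, 57, 47, 72 and 57 reads, then 34, 30, 33, 25 and 33, then 37, 24, 25, 25 and 37. It also did not overlap, with log2 changes of -0.79 ± 0.149 and -1.03 ± 0.161 (SE, edgeR adjusted p = 0.0075 and 0.00019). The gene reads of CG43897 did not pass, with log2 values of -0.12 and 0.03 (edgeR adjusted p = 0.27 and 0.80).

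Some shorter junctions within the same CG43897 intron moved the other way. The annotated 214 bp junction with the same start did not pass, with log2 values of 0.17 and 0.24 (edgeR adjusted p = 0.89 and 0.64). An unannotated junction of 649 bp, chr3L:9830786-9831434, had 2, 0, 3, 0 and 0 reads in *GMR/+*, against 105, 117, 118, 36 and 88 in *GMR* > *prp4* RNAi and 153, 122, 128, 120 and 145 in *GMR* > *prp8* RNAi. An annotated junction of 755 bp, chr3L:9831441-9832195, starts 6 bases beyond it and had 5, 5, 8, 4 and 3 reads, then 177, 192, 186, 65 and 135, then 230, 192, 187, 189 and 201. Both were higher in every knockdown library than in any control, and the log2 change of the 755 bp junction was 5.00 and 5.24. With 5 and 25 reads in the controls together, both passed the minimum number of reads only through the knockdown libraries. They could thus enter the test only with such a rise. *GMR* > *prp4* RNAi replicate 9 was the lowest knockdown library for both. The annotated 758 bp junction that starts with the 755 bp one and ends with the 1413 bp one fell by 0.76 on the log2 scale in each knockdown.

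**Figure D5:**
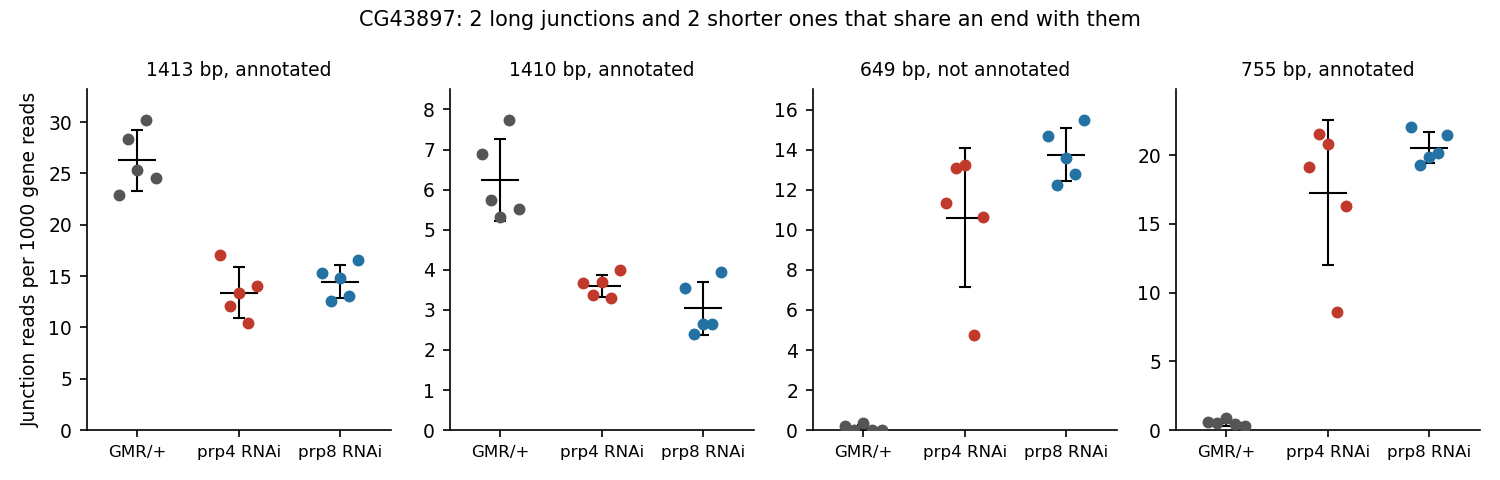
Junction reads per 1000 CG43897 gene reads for the 1413 bp and 1410 bp junctions and for the 649 bp and 755 bp junctions inside them, with 1 point per library and the mean ± SD of 5 libraries in black. The long junctions are lower in the knockdowns (26.3 in *GMR/+* against 13.4 and 14.5 for 1413 bp), and the short ones are near 0 in *GMR/+*.

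*Pka-R1* encodes a regulatory subunit of protein kinase A. An unannotated junction of 1648 bp at chr3L:20831198-20832845 (FBgn0259243) had 0, 0, 0, 0 and 3 reads in *GMR/+*, against 28, 23, 40, 22 and 17 in *GMR* > *prp4* RNAi and 3, 0, 0, 22 and 1 in *GMR* > *prp8* RNAi. All *GMR* > *prp4* RNAi libraries were above all controls, and among the *prp8* libraries the one labelled replicate 14 was within the *prp4* range. The sums of 130 and 3 reads give a ratio of 43.3 with a counting interval of 14.5 to 213 (95%, counting error only), and the edgeR adjusted p was 5.6e-07. The junction had 159 reads in all and passed the minimum of 150 only through the *GMR* > *prp4* RNAi libraries, so it could enter only with such a difference. In *GMR* > *prp8* RNAi, 22 of the 26 reads were in replicate 14, and the adjusted p was 0.38 with that library and 0.94 without it. The difference between the knockdowns passed, with a log2 value of 2.12 (edgeR adjusted p = 0.032). It was 4.30 without replicate 14 (adjusted p = 1.7e-06), and it was lost without any one of replicates 7, 8, 11, 12, 13 and 15, with an adjusted p of up to 0.186.

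A pair of long introns of *Msr-110* fell in *GMR* > *prp4* RNAi. The 1110 bp intron at chr3L:5573830-5574939 had 140, 141, 154, 167 and 175 reads in *GMR/+*, against 120, 108, 133, 100 and 92 in *GMR* > *prp4* RNAi and 197, 135, 174, 123 and 182 in *GMR* > *prp8* RNAi. The 1871 bp intron at chr3L:5574967-5576837 had 142, 138, 159, 171 and 184, then 131, 110, 122, 105 and 98, then 193, 154, 167, 138 and 198. In both, no *GMR* > *prp4* RNAi library reached a control, and replicate 14 was the lowest *prp8* library. The log2 change in *GMR* > *prp4* RNAi was -0.65 ± 0.101 for each (SE, edgeR adjusted p = 0.00061), while in *GMR* > *prp8* RNAi the values were -0.16 and -0.12 (adjusted p = 0.86 and 0.89). The annotated junction of 3008 bp that runs from the start of the first to the end of the second did not pass, and the 1110 bp intron made up 30.3 ± 2.60%, 21.1 ± 2.16% and 31.1 ± 6.3% of its sum with that junction.

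Introns in other genes fell in *GMR* > *prp4* RNAi. *Pu* encodes GTP cyclohydrolase, the entry enzyme of pteridine synthesis, and its first intron (4264 bp, chr2R:21175674-21179937) had 232, 322, 214, 256 and 317 reads in *GMR/+*, against 112, 110, 99, 113 and 128 in *GMR* > *prp4* RNAi and 133, 101, 157, 117 and 238 in *GMR* > *prp8* RNAi. The *prp4* libraries were below all controls and *GMR* > *prp8* RNAi replicate 15 was within the control range. The log2 change per gene read was -0.74 ± 0.096 and -0.46 ± 0.111 (SE, edgeR adjusted p = 5.1e-05 and 0.061), and the gene reads were also lower, by -0.49 and -0.41 (adjusted p = 0.00029 and 0.0089). The 2327 bp intron of CG10077 fell by 0.61 on the log2 scale (edgeR adjusted p = 0.0019), with 187 to 270 reads in *GMR/+* and 145 to 186 in *GMR* > *prp4* RNAi. The 1004 bp intron of CG13830 fell by 0.55 (adjusted p = 0.0075), and the control and *prp4* libraries, at 34.3 to 42.0 and 21.8 to 31.6 per 1000 gene reads, did not overlap. The first intron of *Pect*, an enzyme of phospholipid synthesis, fell by 0.84 (3837 bp, edgeR adjusted p = 0.018, up to 0.107 and lost without replicate 2, 4, 7 or 10). The 3007 bp intron of *vir-1* fell by 0.55 (adjusted p = 0.023, up to 0.126 and lost without replicate 4, 5, 7 or 8). In each of these introns the *prp4* libraries lay below the controls per gene read.

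Other introns of 1 to 10 kb rose. *shi* encodes dynamin, which cuts vesicles from the membrane, and its 1283 bp intron at chrX:15900261-15901543 had 62, 86, 56, 71 and 67 reads in *GMR/+*, against 124, 130, 98, 135 and 125 in *GMR* > *prp4* RNAi and 79, 91, 86, 119 and 94 in *GMR* > *prp8* RNAi. The *prp4* libraries were above all controls, and the *prp8* libraries overlapped with them, replicate 14 being the highest. For *shi* the log2 change was 0.76 ± 0.117 and 0.54 ± 0.118 (SE, edgeR adjusted p = 0.00053 and 0.025). The *prp8* call was lost without any one of replicates 3, 4, 5, 12, 13, 14 and 15, with an adjusted p of up to 0.111. Together with a 2088 bp intron that ends at the same base, the 1283 bp intron made up 70.6 ± 5.17%, 85.6 ± 2.03% and 80.0 ± 4.83%.

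*mbl* encodes Muscleblind, a regulator of alternative splicing. Its 7000 bp intron at chr2R:17352306-17359305 had 86.3 ± 5.71 reads per 1000 gene reads in *GMR/+*, 112 ± 7.74 in *GMR* > *prp4* RNAi and 114 ± 15.0 in *GMR* > *prp8* RNAi (SD, n = 5). The *prp4* libraries, at 99.2 to 119, did not overlap with the controls at 81.9 to 96.3, whereas the *prp8* libraries at 91.6 to 133 did. The lowest *prp8* library was replicate 14, and without it the *prp8* log2 change was 0.47 (edgeR adjusted p = 0.00069). For *mbl* the log2 change was 0.38 ± 0.079 and 0.41 ± 0.084 (SE, edgeR adjusted p = 0.022 and 0.014). The *prp4* call was lost without any one of replicates 1, 3, 4, 5, 7, 8 and 10 (adjusted p up to 0.0971), and the *prp8* call without replicate 4, 5, 12 or 15 (up to 0.106). Of its sum with the 9674 bp intron that starts at the same base it made up 64.8 ± 1.79%, 73.2 ± 3.22% and 76.2 ± 1.94%, and neither knockdown overlapped with the controls in this share.

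Some rises rested on few reads. The 6927 bp first intron of *rgr* had 4 to 10 reads in *GMR/+*, 14 to 19 in *GMR* > *prp4* RNAi and 9 to 26 in *GMR* > *prp8* RNAi, and rose by 1.35 ± 0.267 and 1.36 ± 0.298 on the log2 scale (SE, edgeR adjusted p = 0.012 and 0.025). The *prp4* call was lost without replicate 3 (adjusted p = 0.0528) and the *prp8* call without replicate 2, 3, 4, 11, 13 or 14 (up to 0.130). A 1188 bp intron of *trol*, the basement membrane proteoglycan perlecan, had 4, 9, 10, 13 and 5 reads in *GMR/+* and 29, 25, 23, 29 and 18 in *GMR* > *prp4* RNAi, which did not overlap, with a log2 change of 1.43 ± 0.264 (SE, edgeR adjusted p = 0.0059). A 7467 bp intron of CG42492 rose by 1.29 (edgeR adjusted p = 0.023, up to 0.0755 and lost without replicate 1, 2, 4, 5, 6, 7 or 10). A 1118 bp intron of CG7971 rose by 0.94 (adjusted p = 0.049), and this call was lost with any 1 library left out, with an adjusted p of 0.0524 to 0.144. In *GMR* > *prp8* RNAi the log2 values of the *trol*, CG42492 and CG7971 introns were 0.55, 0.99 and 0.46 (adjusted p = 0.79, 0.30 and 0.76). With all libraries at the control level, the *rgr*, *trol* and CG42492 introns would not have passed the minimum number of reads. The introns of these genes could thus enter the test only with a rise in the knockdown libraries.

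Some long introns passed the test in *GMR* > *prp8* RNAi and not in *GMR* > *prp4* RNAi. *Rtnl1* encodes reticulon, which shapes the endoplasmic reticulum, and its 9619 bp first intron at chr2L:4994995-5004613 had 9, 6, 9, 5 and 11 reads in *GMR/+*, against 10, 12, 7, 15 and 9 in *GMR* > *prp4* RNAi and 29, 18, 26, 15 and 26 in *GMR* > *prp8* RNAi. All *prp8* libraries were above all controls, replicate 14 being the lowest. The log2 change was 1.48 ± 0.26 (SE, edgeR adjusted p = 0.0014), and in *GMR* > *prp4* RNAi it was 0.53 (adjusted p = 0.83). With all libraries at the control level, this *Rtnl1* intron would not have passed the minimum number of reads. It could thus enter the test only with a rise in the knockdown libraries. *CAP* encodes a cytoskeletal scaffold protein, and its 2603 bp first intron at chr2R:10302021-10304623 had 118, 110, 129, 118 and 137 reads in *GMR/+*, against 67, 118, 112, 101 and 105 in *GMR* > *prp4* RNAi and 64, 71, 82, 94 and 89 in *GMR* > *prp8* RNAi. No *prp8* library reached a control, with a log2 change of -0.79 ± 0.111 (SE, edgeR adjusted p = 3.1e-05), against -0.29 in *GMR* > *prp4* RNAi (adjusted p = 0.64). For neither gene did the difference between the knockdowns pass with all libraries (log2 -0.95 and 0.50, adjusted p = 0.13 and 0.15), and without replicate 14 that of *Rtnl1* did (adjusted p = 0.0393).

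*Pkn* encodes protein kinase N, a serine/threonine kinase. Its 3130 bp intron at chr2R:9255710-9258839 had 51.2 ± 3.59 reads per 1000 gene reads in *GMR/+*, 55.6 ± 1.82 in *GMR* > *prp4* RNAi and 69.7 ± 9.94 in *GMR* > *prp8* RNAi (SD, n = 5), the last lying at 61.1 to 84.6 above the 46.5 to 56.0 of the controls. The log2 change in *GMR* > *prp8* RNAi was 0.45 ± 0.086 (SE, edgeR adjusted p = 0.0056), and the call was lost without replicate 15 (adjusted p = 0.0597). A 119 bp intron that starts at the same base fell in both knockdowns, by -0.47 and -0.60 on the log2 scale (adjusted p = 0.02 and 1.6e-05). The long intron made up 40.5 ± 1.94% of the sum of both in *GMR/+*, 50.9 ± 4.56% in *GMR* > *prp4* RNAi and 58.4 ± 4.61% in *GMR* > *prp8* RNAi, with no overlap between the controls and either knockdown.

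The 2373 bp intron in the 5′ UTR of *Eaat2*, which encodes a transporter of acidic amino acids, had 99, 59, 94, 98 and 98 reads in *GMR/+* and 120, 171, 145, 117 and 150 in *GMR* > *prp8* RNAi. The groups did not overlap, and the log2 change was 0.65 ± 0.128 (SE, edgeR adjusted p = 0.0071, lost without replicate 12 at 0.0689). A 1273 bp intron of *Wbp2* had 381 to 401 reads in *GMR/+*, 415 to 478 in *GMR* > *prp4* RNAi and 460 to 536 in *GMR* > *prp8* RNAi. These groups did not overlap with the controls, the log2 change of 0.30 in *GMR* > *prp8* RNAi passed (edgeR adjusted p = 0.017, up to 0.108 and lost without replicate 5, 13 or 15), and that of 0.16 in *GMR* > *prp4* RNAi did not (adjusted p = 0.60). CG43340 had 2 introns that rose in *GMR* > *prp8* RNAi, of 6688 bp by 0.76 (edgeR adjusted p = 0.0056) and of 1613 bp by 0.36 (adjusted p = 0.029, up to 0.187 and lost without replicate 4, 5, 12, 13 or 15). An unannotated junction of 4614 bp in CG42322 rose by 0.64 (adjusted p = 0.026, up to 0.134 and lost without replicate 2, 3, 4, 5, 11, 12 or 13).

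Several calls in *GMR* > *prp8* RNAi rest on a denominator or a location that limits them. A 2191 bp intron of the tetraspanin gene *Tsp42Ea* had more reads than its gene in the table, and its log2 value turned from 0.94 (edgeR adjusted p = 0.011) to -0.12 without the gene denominator. The call was lost without replicate 11 or 13, with an adjusted p of up to 0.0757. A 4207 bp junction joins *Ubi-p5E* to CG11700, with 2 genes between the ends, and has more reads than CG11700. Its log2 change of -1.57 (adjusted p = 0.00041) was 0.01 with all junction reads of the gene as denominator, and both genes encode polyubiquitin-like repeats among which reads could be split. In *ninaE*, unannotated junctions of 1047 bp and 1069 bp fell by 0.62 and 0.37 on the log2 scale (adjusted p = 0.024 and 0.042). The calls were lost without any one of replicates 1, 11, 12, 13 and 15, and 1, 4, 5, 11, 12 and 13, with adjusted p of up to 0.124 and 0.284, and the controls overlapped with the *prp8* libraries at both, with 1.77 to 2.80 and 1.48 to 2.14 per 1000 gene reads at the 1069 bp junction.

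When the knockdowns were compared with each other, 6 of 4021 long junctions differed (0.149%), 2 higher and 4 lower in *GMR* > *prp4* RNAi, where 0.172% of all junctions did, 0.0732% higher and 0.099% lower. All 6 were of 1 to 10 kb. Of the 609 junctions over 10 kb, 0 passed in edgeR, and 0 in DESeq2 and 0 in limma, and 50 had an unadjusted p under 0.05, as did 296 of all long junctions and 5.95% of all junctions. The groups did not overlap in 36 long junctions (0.895%), where 0.981% of all junctions did not. Beside *Pka-R1* and the 1871 bp intron of *Msr-110* (log2 -0.52, edgeR adjusted p = 0.024), they were in CG13830 (log2 -0.59, adjusted p = 0.032), *dlg1*, CG43078 and *Vha68-3*. The *Msr-110* call was lost without any one of replicates 7, 10, 11, 13 and 15 (adjusted p up to 0.138), and that of CG13830 without any one of replicates 6, 7, 9, 11, 12, 13 and 15 (up to 0.186). Without replicate 14 their values were -0.61 and -0.72 (adjusted p = 0.00053 and 0.00010), and *Vha68-3* passed with each library left out. With the library labelled replicate 14 left out, 15 differed (0.373%), where 0.392% of all junctions did, and without any other library between 1 and 7 did.

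*dlg1* encodes Discs large, a scaffold protein of synapses and epithelia. Its 4659 bp intron at chrX:11383113-11387771 had 15, 17, 18, 23 and 15 reads in *GMR/+*, against 14, 25, 19, 21 and 18 in *GMR* > *prp4* RNAi and 7, 5, 7, 13 and 4 in *GMR* > *prp8* RNAi. The *prp8* libraries were the lowest, replicate 14 being the highest of them, and the difference was 1.27 ± 0.262 (log2, SE, edgeR adjusted p = 0.029) with all libraries and 1.53 without replicate 14 (adjusted p = 0.0027). The call was lost without any one of replicates 7, 8, 9, 11, 12, 13 and 15, with an adjusted p of up to 0.131. The 4648 bp intron of CG43078 had 267, 315, 264, 305 and 269 reads in *GMR* > *prp4* RNAi and 339, 338, 382, 318 and 387 in *GMR* > *prp8* RNAi, with replicate 14 the lowest of the latter and within the *prp4* range per gene read. Its difference of -0.39 (edgeR adjusted p = 0.034) was lost without any one of replicates 6, 7, 8, 10, 11, 12, 13 and 15, with an adjusted p of up to 0.226.

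A junction of 3288 bp at chr2L:12976824-12980111, listed with *Vha68-3*, joins it to *Vha68-2*, a subunit of the vacuolar proton pump, and was named after its values were seen. It had 16, 23, 19, 24 and 21 reads in *GMR/+*, against 0, 0, 0, 1 and 0 in *GMR* > *prp4* RNAi and 30, 22, 21, 0 and 31 in *GMR* > *prp8* RNAi. The library labelled replicate 14 had none, as 4 of the *prp4* libraries did. The sums of 1 and 103 reads give a ratio of 0.00971 to *GMR/+* (counting interval 0.000243 to 0.0553), and the edgeR adjusted p was 5e-07 against *GMR/+* and 7.7e-06 between the knockdowns. *Vha68-3* itself had at most 1 read in a library and the 2 genes are related in sequence, so the placement of these reads is uncertain. Over the 23 long junctions that changed in *GMR* > *prp4* RNAi, replicate 14 was within the *prp4* range per gene read at 13. Replicates 11, 12, 13 and 15 were at 8, 8, 10 and 6. The *Vha68-3* junction was counted as outside the range, since its gene had no reads in *GMR* > *prp8* RNAi and no value could be formed.

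Lists of genes by function were set beside these calls, counting long junctions in their genes. Of 137 in genes of ion channels, 172 in genes of cell adhesion and axon guidance, 89 in genes of transcription factors and 25 in clock genes, none passed in any of the comparisons by edgeR. Of all junctions tested 0.34% and 0.293% changed in the knockdowns, against which the following counts stand. Of 88 in phototransduction genes, 38 of them the unannotated junctions of *ninaE*, 1 changed in *GMR* > *prp4* RNAi, in *Ggamma30A*, and 3 in *GMR* > *prp8* RNAi, in *Ggamma30A* and *ninaE*. Their median log2 change was -0.03 and -0.04, against -0.01 and 0.00 over all junctions. Of 87 in genes of synaptic vesicles and active zones, 1 (*shi*) and 2 (*shi* and *Eaat2*) changed. Of 80 in genes of RNA-binding proteins, 1 changed in each knockdown, in *mbl*, and of 65 in genes of cyclic nucleotide and calcium signalling, 2 (*Pka-R1* and *Pde1c*) and 1 (*Pde1c*) did. The 17 listed genes of tri-snRNP proteins had no long junction.

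The gene reads that form the denominator changed as well. Of 1899 genes with a long junction that could be tested, 199 changed in *GMR* > *prp4* RNAi (10.5%), 120 higher and 79 lower, where 9.63% of all 9012 genes did. Among the 412 with a junction over 10 kb, 27 changed (6.55%). In *GMR* > *prp8* RNAi, 93 changed (4.90%), 42 higher and 51 lower, where 4.73% of 9019 genes did, and 13 of the 412 (3.16%) changed. *Dop1R1* had the largest fall of these genes in both. *Rh4*, a rhodopsin of inner photoreceptors, had 16033, 16644, 16213, 15320 and 15807 gene reads in *GMR/+*, against 8665, 9675, 9099, 8842 and 8984 in *GMR* > *prp4* RNAi and 8834, 9264, 8905, 9223 and 9230 in *GMR* > *prp8* RNAi. Every knockdown library was below every control, with log2 changes of -0.81 and -0.83 (edgeR adjusted p = 1.8e-07 and 2.1e-07). DESeq2 called 163 of these genes in *GMR* > *prp8* RNAi (8.58%), where it called 6.92% of all genes. With edgeR, leaving out replicate 3, 4 or 11 gave 59, 60 and 54 (3.11%, 3.16% and 2.84%). The shares of all genes were then 2.56%, 2.56% and 2.36%. Without replicate 14, 135 changed (7.11%), 53 higher and 82 lower, where 5.76% of all genes did. Of the 412 with a junction over 10 kb, 20 then changed (4.85%).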

How the data were processed

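RNA was prepared with the Lexogen SENSE mRNA-Seq kit and sequenced as paired ends. Alignment by the authors was to BDGP6 with STAR 2.5.3a, and they removed ribosomal and mitochondrial reads and resampled each library to one depth with PORT, so library totals are close to equal by construction. They deposited whole-number counts of reads per gene and per splice junction, which are used here unscaled. Whether counting used strand is not given in the sources used here. The exon table was not used. The junctions at hand were checked against introns of a later Ensembl annotation of the same assembly.

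Junction counts were fitted with the quasi-likelihood test of edgeR 4.0.16 in R 4.3.3, with the log of the gene count plus 0.5 as offset, over all 23237 junctions with at least 150 reads, and p-values were adjusted over all of them. Knockdowns were each fitted with the 5 controls, and the knockdowns were compared in a fit of all 15 libraries. Gene counts were fitted with TMM normalization and filterByExpr. On simulated counts for *prp4* against control with 200 features changed 2-fold, the junction test over 23237 junctions recovered 162 with 17 false calls, and the gene test over 9012 genes 189 with 8. Other values came from Python 3.11.15, pandas 2.3.3 and numpy 2.4.6, and figures from matplotlib 3.10.9. Alternatives included DESeq2 1.42.0, limma 3.58.1, other denominators and filters, and each library left out. The fits without the library labelled replicate 14 and the sums without *ninaE* were singled out after seeing the data.

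Named introns were those past an adjusted p of 0.05 without overlap between the groups and with at least 10 reads on average in one group, up to 6 rises and 6 falls per comparison, every changed member in the listed genes, the 5 longest, the most read and those at the limits. Other changed members and *Vha68-3* were named after their values were seen. The members and lists were chosen with earlier results of these data known. A search for recursive splice sites was planned and not run, since a genome sequence is not used here.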

Additional observations from a re-analysis of the deposited data

Results flagged for a closer look

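Libraries were compared within groups of 5 for the named introns and the class values. A library was singled out when its gap to the nearest other library was a large part of the group's range. Of 186 groups examined 14 had such a library, where chance gives about 1 in 20, or 9.3. The gap took 0.827 of the range for the 33849 bp *Ggamma30A* junction (*GMR/+* replicate 3 lowest), 0.728 for *Pde1c* (*GMR/+* replicate 3 highest), 0.780 for *mbl* (*GMR/+* replicate 2 highest), 0.813 for *Eaat2* (*GMR/+* replicate 2 lowest) and 0.719 for the 1047 bp *ninaE* junction (*GMR/+* replicate 1 highest). For *Pka-R1* it took 1.0 in *GMR/+*, where replicate 5 alone had reads, and 0.828 in *GMR* > *prp8* RNAi, where the library labelled replicate 14 was highest.

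In *GMR* > *prp4* RNAi the gap took 0.754 for *shi* (replicate 8 lowest), 0.793 for *CAP* (replicate 6 lowest), 0.773 for *Pkn* (replicate 6 highest) and 0.742 for the 249368 bp *ninaE* junction (replicate 7 highest). Replicate 6 was also highest in the summed readout over 10 kb (0.825) and in the ratio of the classes (0.759). For the *SelR* junction *GMR* > *prp8* RNAi replicate 11 was highest (0.914).

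The knockdown libraries differed in 6 long junctions by edgeR, with log2 differences of -6.44 in *Vha68-3*, -0.52 in *Msr-110* (1871 bp), -0.39 in CG43078, 2.12 in *Pka-R1*, -0.59 in CG13830 and 1.27 in *dlg1* (adjusted p of 7.7e-06, 0.024, 0.034, 0.032, 0.032 and 0.029).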

How the results depend on the processing

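No paired analysis was possible because each library carries its own replicate number and no label links libraries of different genotypes. The 23 long junctions changed in *GMR* > *prp4* RNAi became 14 with at least 300 reads (3 higher, 11 lower), 9 with junctions sharing an end as denominator and 73 without a gene denominator, and ranged from 16 to 27 with a library left out. The 22 in *GMR* > *prp8* RNAi became 9 with all junction reads of the gene as denominator, 8 with junctions sharing an end and 44 without a gene denominator, and ranged from 12 to 24 with a library left out, with 14 without replicate 12 and 12 without replicate 13. The 6 between the knockdowns became 1 with at least 300 reads, 0 with all junction reads, 0 with junctions sharing an end and 21 without a gene denominator, and ranged from 1 to 15 with a library left out (1 without replicate 7, 11, 13 or 15, 2 without 12, 3 without 8 and 15 without 14). Host genes changed ranged from 128 to 207 in *GMR* > *prp4* RNAi (128 without replicate 3, 131 without 4) and from 54 to 135 in *GMR* > *prp8* RNAi, and DESeq2 gave 163 for the latter. The test with junctions sharing an end counts the member's own reads in the denominator and covers 3665 long junctions. Otherwise the cause was not tested.

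The log2 changes of the class readouts and of their ratio, taken with all long junctions, and the median changes by class moved by less than 1 SD of the controls in every setting. Their signs were not fixed, and the *prp8* ratio was 0.0075 with all junctions, -0.0064 with annotated introns and -0.0503 without *ninaE*. Of 980 results for 48 named calls under other settings, 756 kept the call, 219 lost it and 5 reversed. The reversed log2 values were -0.0505 for *Dop1R1* in *GMR* > *prp8* RNAi and -0.12 for *Tsp42Ea* without a gene denominator, -0.0131 for *Tsp42Ea* and -0.00589 for the 1613 bp intron of CG43340 with junctions sharing an end, and 0.00991 for CG11700 with all junction reads. Leaving out any one library ended none of 24 of the 48 calls. Some of these 24 were lost under other settings. *Ace* was lost under 1 in each knockdown, *Pu* in *GMR* > *prp4* RNAi under 1, and *CAP* and *Pde1c* in *GMR* > *prp8* RNAi under 2 each. In every setting that covered them 6 calls held, in CG43897 (1413 bp in both knockdowns, 1410 bp in *GMR* > *prp8* RNAi), *Ggamma30A* (both) and *Pka-R1* (*GMR* > *prp4* RNAi). The *Ggamma30A* and *Pka-R1* junctions are unannotated and had 278 and 159 reads. The settings with at least 300 reads and with annotated introns only therefore did not cover them. Both junctions passed the minimum of 150 reads only through the knockdown libraries. Depth limits junctions of few reads, such as the 150-read members at about 10 reads per library.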

Other observations

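With the library labelled *GMR* > *prp8* RNAi replicate 14 left out, the long junctions that differed between the knockdowns by edgeR, beside those named with all libraries, lay in the sodium pump gene *Atpalpha* (2558 bp at -0.55 and 2899 bp at -0.42 on the log2 scale, adjusted p = 0.018 and 0.023), *pyd*, a junctional scaffold (1136 bp, -0.55, adjusted p = 0.011), and *sif* (6741 bp, 0.82, adjusted p = 0.023). The others were in CG43340 (6688 bp, -0.69), the 1110 bp intron of *Msr-110* (-0.60), *Pect* (-0.81), *Rtnl1* (-1.04) and *Tsp42Ea* (-1.06). These were seen after the library had been singled out. Gene reads of some host genes set the same library apart, in values picked after they were seen. *TwdlE* had 13, 18, 10, 14 and 12 reads in *GMR/+*, against 114, 141, 132, 98 and 176 in *GMR* > *prp4* RNAi and 6, 10, 7, 134 and 5 in *GMR* > *prp8* RNAi, and *ptc*, the Hedgehog receptor gene, had 463 to 532, 260 to 314 and, in *GMR* > *prp8* RNAi, 479, 518, 571, 287 and 555.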
